A study of Mus musculus with 8 samples.

Results

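The peaks described here lie around 6 genes for surface proteins that are used to recognise hematopoietic stem cells (HSCs): Kit, Ly6a (Sca-1), Slamf1 (CD150), Cd48, Procr (EPCR) and Cd34. Members are the peaks that lie fully inside 1 interval around each gene, 35000 to 115000 bases long, in the coordinates of the mouse build mm9. There were 51 such peaks among the 126871 in the table, of which 17 were at Kit, 9 at Cd34, 7 each at Slamf1 and Ly6a, 6 at Procr and 5 at Cd48. They are numbered along each locus in order of position. The counts come from bulk ATAC-seq, in which a transposase cuts open chromatin, so that the number of reads over a region follows its accessibility. HSCs were sorted from bone marrow of C57BL/6 mice as LSK CD150+ CD48- cells, and 4 libraries from old mice were compared with 4 from young mice. The labels give neither ages nor sex, and they leave unsaid whether mice were pooled or whether each replicate is a different mouse. The p-values therefore reflect only how much these libraries vary, which could be technical, and age cannot be told apart from other things that differ between the 2 groups.

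LSK cells lack mature lineage markers and carry Sca-1 and KIT. Among them, CD150 without CD48 marks the cells richest in long-term repopulating stem cells. KIT is the receptor for stem cell factor, Sca-1 is a lipid-anchored protein of the Ly6 family that interferon induces, and CD150 and CD48 are neighbouring members of the SLAM family of immune receptors. EPCR, the receptor for protein C, marks repopulating cells with high purity, and CD34, a sialomucin, is low or absent on long-term HSCs of adult mice and present on the progenitors that follow them. The sort chose cells by 4 of these proteins in both groups, so the loci are compared between cells already matched on that gate.

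RefSeq promoter sequences (build GRCm38.p6) matched 5 of the 6 genes, all but Ly6a. Those of the 4 matched genes whose locus changed as a whole are printed, each as the 250 bases before the start of transcription, on the + strand. They show the DNA at the start of each gene (for Kit, the first of 2 entries). Because the peaks are in another build, which peak covers a promoter was not analysed here. Capitals mark any match, on either strand, to the letters GATAAG for GATA factors, GGAAGT for ETS factors, TGTGGT for RUNX factors, GGGCGG for a GC box, TGACTCA for AP-1 or CAGCTG for an E-box.
Cd48, chr1:171681742-171681991: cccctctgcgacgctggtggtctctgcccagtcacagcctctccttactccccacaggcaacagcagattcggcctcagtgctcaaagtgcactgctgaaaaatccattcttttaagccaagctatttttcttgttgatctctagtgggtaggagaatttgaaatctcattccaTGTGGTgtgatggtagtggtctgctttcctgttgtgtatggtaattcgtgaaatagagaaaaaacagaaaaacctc
Cd34, chr1:194938571-194938820: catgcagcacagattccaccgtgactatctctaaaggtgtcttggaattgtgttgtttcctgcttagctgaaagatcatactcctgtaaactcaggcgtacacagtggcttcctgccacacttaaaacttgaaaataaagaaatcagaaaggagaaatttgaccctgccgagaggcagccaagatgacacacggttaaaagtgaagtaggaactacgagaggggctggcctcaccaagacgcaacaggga
Kit, chr5:75574737-75574986: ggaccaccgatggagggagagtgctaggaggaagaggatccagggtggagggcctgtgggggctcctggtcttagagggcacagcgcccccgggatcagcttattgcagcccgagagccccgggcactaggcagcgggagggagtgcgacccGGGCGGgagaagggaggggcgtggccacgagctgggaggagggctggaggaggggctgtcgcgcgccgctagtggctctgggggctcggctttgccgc
Procr, chr2:155750967-155751216: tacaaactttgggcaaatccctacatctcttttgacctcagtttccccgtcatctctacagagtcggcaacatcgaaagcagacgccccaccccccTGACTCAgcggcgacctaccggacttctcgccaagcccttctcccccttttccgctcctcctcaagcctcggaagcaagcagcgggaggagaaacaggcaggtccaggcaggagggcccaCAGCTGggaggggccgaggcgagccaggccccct
The Kit sequence was the richest in G and C, at 70.8%, against 61.6% for Procr, 46.4% for Cd34, 46.0% for Cd48 and a median of 52.4% over all 32851 promoters of the table. Cd48 held 1 match to the RUNX letters, found in 14.0% of all promoters. Kit held 1 GC box, found in 32.7%. Procr held the AP-1 letters, found in 4.46%, and the E-box letters, found in 13.0%. Cd34 held no match in this window, and the GATA and ETS letters, found in 6.55% and 19.7% of all promoters, were in none of the 4. A match is a description of letters and not a bound site.

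Library totals ran from 4200905 to 5129684 counts. Levels are in CPM, counts scaled to a common library size, after TMM scaling for library composition. Old replicate 4 stood apart from its group, correlating with its own group at 0.919 on average (the others at 0.941 to 0.944). With the young group it correlated at 0.907 (the others at 0.842 to 0.857), so results are given with and without it. Young replicate 2 was the young library most like the old group, at 0.89 (the others at 0.850 to 0.862). Its correlation with its own group, 0.935, was near that of the others (0.936 to 0.938). The lowest chi-square per tested peak over the 28 pairs of libraries was 1.19, above the level of sampling noise alone.

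Summed over its peaks, accessibility rose in old HSCs at the Kit and Procr loci and fell at the Cd48, Ly6a and Cd34 loci, while the Slamf1 sum did not pass the test. The largest change was at Cd48, whose sum in old libraries was 0.633 of that in young ones. The other changes were smaller, from 0.793-fold at Cd34 to 1.23-fold at Procr. In bulk libraries, a region open in fewer cells and a region less open in each cell cannot be told apart. These sums were tested with edgeR's quasi-likelihood test in 1 fit with windows of 50000 bases over the rest of the genome, and called where the adjusted p (Benjamini-Hochberg, over all 27053 rows) was below 0.05. Of those rows 26.2% were called, 13.4% higher and 12.8% lower, and in 24.4% the old and young libraries did not overlap. The median row had 20.9 CPM, and all of the 6 loci except Cd48 were above that in both groups.

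**Figure D1:**
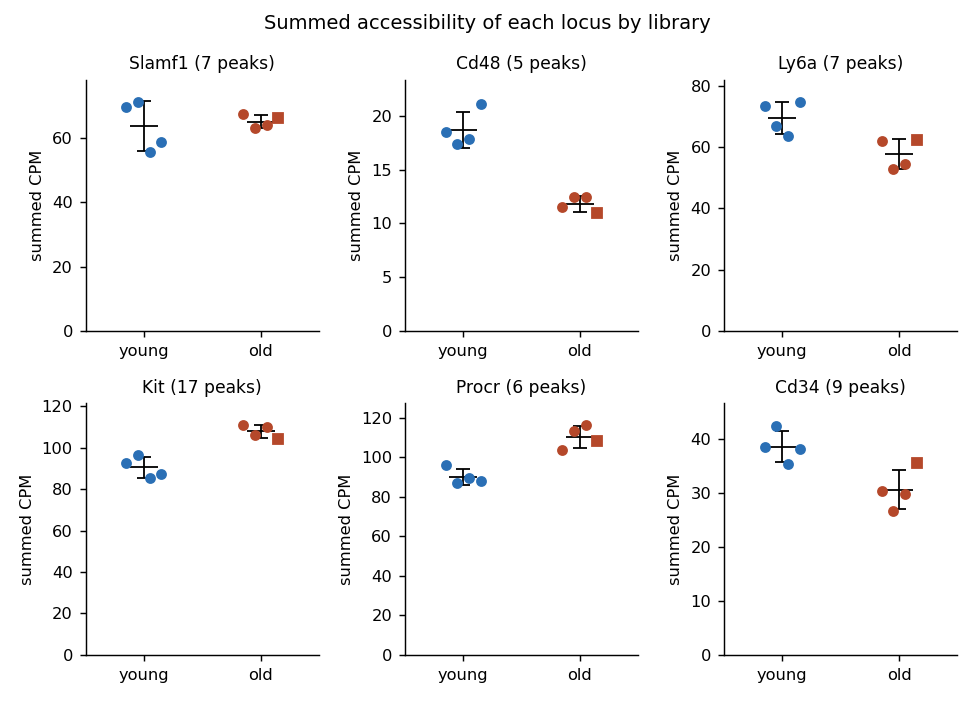
Summed CPM of the peaks of each locus (vertical axis, from 0) in the 4 young (blue) and 4 old (red) libraries, with the mean and SD in black and old replicate 4 as a square. The groups do not overlap at Cd48, Ly6a, Kit and Procr, they meet at Cd34, and at Slamf1 the old libraries lie inside the young range.

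The Cd48 sum was 11.5, 12.4, 12.5 and 10.9 CPM in old replicates 1 to 4 and 18.5, 17.4, 17.8 and 21.1 CPM in young replicates 1 to 4. Every old library was below every young one, and the log2 fold change, old minus young, was -0.66 ± 0.14 (SE; edgeR adjusted p = 0.00249). The Ly6a sum was 61.8, 52.9, 54.3 and 62.2 CPM in the old and 73.2, 66.9, 63.5 and 74.5 CPM in the young libraries. The groups came close but did not overlap (log2 fold change -0.27 ± 0.08, edgeR adjusted p = 0.0171). The Cd34 sum was 30.4, 26.7, 29.9 and 35.6 CPM in the old and 38.5, 42.3, 35.5 and 38.1 CPM in the young libraries. Old replicate 4 lay just above the lowest young library there, and the others were below all young libraries (log2 fold change -0.34 ± 0.11, edgeR adjusted p = 0.0244).

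The Kit sum was 110.9, 106, 110.2 and 104 CPM in the old and 92.8, 96.7, 85.4 and 87.1 CPM in the young libraries. All old libraries were higher than all young ones (log2 fold change 0.25 ± 0.06, edgeR adjusted p = 0.00419). The Procr sum was 103, 113, 116 and 108 CPM in the old and 95.9, 86.9, 89.2 and 88.2 CPM in the young libraries. It too was higher in every old library (log2 fold change 0.29 ± 0.06, edgeR adjusted p = 0.00137). The Slamf1 sum was 67.3, 63.0, 63.8 and 66.0 CPM in the old and 69.6, 70.9, 55.7 and 58.6 CPM in the young libraries. The 4 old libraries lay inside the young range (log2 fold change 0.03 ± 0.08, edgeR adjusted p = 0.847).

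Without old replicate 4 the same 5 sums passed, with log2 fold changes of -0.62 at Cd48, -0.31 at Ly6a, -0.42 at Cd34, 0.27 at Kit and 0.31 at Procr, while 34.3% of all rows were then called. The Cd34 call was lost without old replicate 1 (edgeR adjusted p = 0.0549), old replicate 2 (0.100), old replicate 3 (0.0643) or young replicate 2 (0.0669), and with DESeq2's test (0.0528). The Ly6a call was lost without old replicate 2 (0.0745), old replicate 3 (0.0612) or young replicate 4 (0.0514). The Cd48, Kit and Procr sums passed with each library left out in turn.

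Set per 1000 bases of peak, to allow for the different lengths of the loci, Procr had the highest level in old HSCs and Cd48 the lowest in both groups. Such a level also depends on how many weak peaks an interval takes in, and Kit held 10 untested peaks against 1 at Procr. As plain sums, Kit and Procr were close, with means of 107.8 and 110.2 CPM in the old and 90.5 and 90.0 CPM in the young libraries. In old libraries the order was Procr at 24.1 ± 1.24 CPM per 1000 bases, Ly6a at 16.3 ± 1.37, Kit at 14.5 ± 0.440, Slamf1 at 13.7 ± 0.417, Cd34 at 7.64 ± 0.919 and Cd48 at 4.84 ± 0.307 (SD, n = 4). Neighbours in that order overlapped between Ly6a and Kit and between Kit and Slamf1. In young libraries Procr at 19.7 ± 0.878 and Ly6a at 19.6 ± 1.47 overlapped, as did Slamf1 at 13.4 ± 1.62 and Kit at 12.2 ± 0.699, followed by Cd34 at 9.62 ± 0.708 and Cd48 at 7.65 ± 0.682. Every other locus was more open per length than Cd48 in each library. That holds for the loci of proteins the gate requires and also for Procr and Cd34, which the gate does not use.

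**Figure D2:**
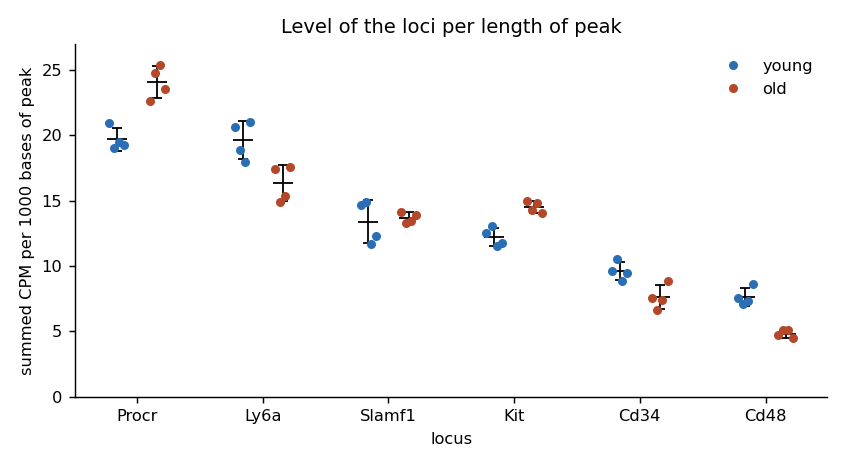
Summed CPM per 1000 bases of peak (vertical axis, from 0) at each locus, ordered by the young mean, in young (blue) and old (red) libraries, with the mean and SD in black. Procr and Ly6a share the top in the young libraries, and Procr stands above all other loci in old ones.

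Ratios of loci within a library do not depend on library scaling. Counts per base of peak at Kit over those at Cd48 were 3.18, 2.81, 2.92 and 3.14 in the old and 1.66, 1.83, 1.58 and 1.36 in the young libraries, so the groups were well apart. Procr over Ly6a was 1.49 ± 0.196 in the old and 1.01 ± 0.0702 in the young libraries (SD, n = 4 per group), with 1.30 to 1.66 against 0.916 to 1.09. In each of these pairs a locus called higher was set over a locus called lower in the same libraries. The separation therefore restates those calls and adds no support to them. Ly6a over Cd34, loci that both fell, was 2.15 ± 0.152 in the old and 2.05 ± 0.188 in the young libraries, and there the groups overlapped.

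Of the 51 peaks, 29 passed the filter on low counts (edgeR's filterByExpr) and were tested, and the other 22 held at most 17 counts in any library. Of the 29, 4 were called higher and 3 lower in old HSCs, or 24.1% of the tested members, against 20.5% of all 73164 tested peaks (10.0% higher and 10.4% lower). In 6 of the 29, or 20.7%, the old and young libraries did not overlap, against 21.1% of all tested peaks. The share called is thus near the background. In 5 of the 22 untested members the groups did not overlap in CPM, 2 with old above and 3 with old below. The share among all untested peaks was not computed. The median log2 fold change was -0.15 over the tested members and 0.01 over all tested peaks, and the median size of change 0.35 and 0.29. Cd34 peak 6 was below the filter's floor of 2.09 CPM in every old library and so was tested because of its young level. Without old replicate 4, 7 were higher and 5 lower among 30 tested members, against 30.0% of all peaks called. The adjusted p next to the threshold were 0.0377 inside and 0.0590 outside it.

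**Figure D3:**
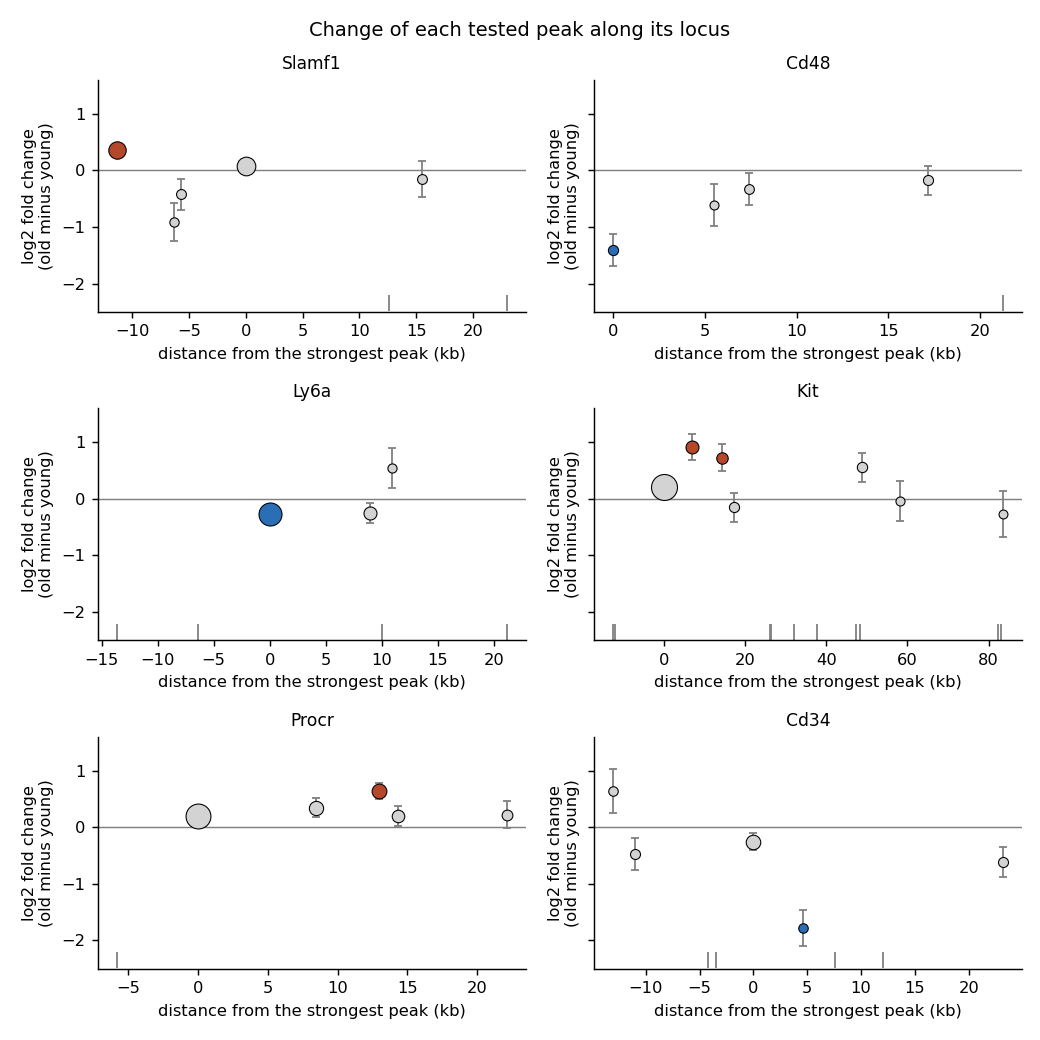
Log2 fold change, old minus young (vertical axis, with SE), of each tested peak against its distance from the strongest peak of the locus in kilobases (kb). Larger points have higher mean CPM, red points were called higher, blue points lower and grey points were not called, and ticks at the bottom mark untested peaks. All 5 tested peaks at Procr lie above 0 and all 4 at Cd48 lie below it.

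At Kit, most counts came from 1 strong peak, and the called changes were at a pair of weaker peaks beside it. Kit peak 3 (chromosome 5, 75970557 to 75972123) held 58.9% of the locus's counts in the old and 61.7% in the young libraries. Its level was 73.1, 72.4, 63.7 and 60.6 CPM in the old and 59.0, 61.7, 59.8 and 53.6 CPM in the young libraries. Old replicate 4 lay within the young range, and the difference did not pass the test (log2 fold change 0.20 ± 0.08, edgeR adjusted p = 0.0677). It passed without that library (0.26, adjusted p = 0.0101), when 30.0% of all tested peaks were called, and with no count filter (0.24, adjusted p = 0.0443).

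Kit peak 4 (75977900 to 75978450), centred 6835 bases further along, rose 1.89-fold, from 138 counts in all young libraries to 261 in all old ones. It had 14.0, 11.6, 18.7 and 14.5 CPM in the old and 7.46, 8.84, 3.75 and 10.6 CPM in the young libraries. The groups did not overlap (log2 fold change 0.92 ± 0.23, edgeR adjusted p = 0.00861). Kit peak 5 (75985294 to 75985939), centred 14276 bases from peak 3, had 6.62, 10.5, 12.5 and 7.65 CPM in the old and 6.30, 6.73, 3.75 and 5.60 CPM in the young libraries. Old replicate 1 lay within the young range, and the rise (log2 fold change 0.73 ± 0.24, edgeR adjusted p = 0.0348) did not pass without old replicate 2, old replicate 3, or young replicate 1, 3 or 4 (adjusted p = 0.0523 to 0.138), or with DESeq2's test (0.0760). For peaks, DESeq2's test was run on all 51 members, so filter and test changed together. Young replicate 3 was the lowest library at both peaks, with 15 counts at each. Without it the log2 fold change was 0.71 at peak 4 and 0.58 at peak 5.

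Kit peak 6, centred 17180 bases from peak 3, had a log2 fold change of -0.15 ± 0.26 (edgeR adjusted p = 0.737). Kit peak 13, centred 48904 bases from peak 3, had 5.81 ± 1.45 CPM in the old and 3.92 ± 0.803 CPM in the young libraries (SD, n = 4 per group; log2 fold change 0.56 ± 0.26, edgeR adjusted p = 0.140). The remaining tested peaks, 14 and 17, had log2 fold changes of -0.04 and -0.27. The other 10 peaks at Kit were too weak to test, at no more than 11 counts in any library. Outside its 2 called peaks the Kit sum was 85.2 ± 4.52 CPM in the old and 77.9 ± 4.43 CPM in the young libraries, and the groups overlapped. On the reference gene order Kit lies between Pdgfra and Kdr, genes for other receptor kinases, so a peak in the interval is assigned to the locus and not to the gene.

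At Ly6a, the locus for Sca-1, the called change was a small loss at its 1 dominant peak. Ly6a peak 3 (chromosome 15, 74818693 to 74820204) held 71.4% of the locus's counts in the old and 71.8% in the young libraries. Its level was 46.1, 40.6, 42.2 and 46.1 CPM in the old and 56.0, 49.7, 47.5 and 56.4 CPM in the young libraries. All old libraries were below all young ones (log2 fold change -0.26 ± 0.08, edgeR adjusted p = 0.0292), but the call was lost without old replicate 1, 2 or 3, or young replicate 1 or 4 (adjusted p = 0.0522 to 0.123), with no count filter (0.0708) and with DESeq2's test (0.173).

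Ly6a peak 4, centred 8984 bases further along, had 10.4 ± 1.83 CPM in the old and 12.3 ± 1.05 CPM in the young libraries (SD, n = 4 per group; log2 fold change -0.26 ± 0.17, edgeR adjusted p = 0.326). Ly6a peak 6 (74830278 to 74830497) had the only positive value of the 3 tested, with 3.31, 3.997, 1.85 and 3.31 CPM in the old and 1.63, 2.31, 1.25 and 3.23 CPM in the young libraries. The groups overlapped (log2 fold change 0.54 ± 0.35, edgeR adjusted p = 0.302). Among the 4 untested peaks, Ly6a peak 2 had 4, 1, 1 and 5 counts in the old and 8, 7, 10 and 10 in the young libraries, without overlap. Fitted with no count filter, it had a log2 fold change of -1.61 ± 0.52 (edgeR adjusted p = 0.0317). Ly6a lies in a family of related genes, next to Ly6i and Ly6c1 on the reference order. How reads that fit several copies were treated is not given in the sources used here, so the split of counts between copies is uncertain.

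At Slamf1, the locus for CD150, the sum did not pass the test and a peak at one end rose. Most counts fell in peaks 1 and 4, which held 40.7% and 44.0% of the locus in the old and 32.9% and 42.6% in the young libraries. Slamf1 peak 1 (chromosome 1, 173691729 to 173692772) had 30.0, 28.4, 25.8 and 27.9 CPM in the old and 25.2, 20.8, 18.3 and 23.3 CPM in the young libraries. The groups did not overlap (log2 fold change 0.35 ± 0.12, edgeR adjusted p = 0.0377). This call was the least firm, being lost without old replicate 1 or 2, or young replicate 2, 3 or 4 (adjusted p = 0.0507 to 0.123), with total count scaling (0.0567), loess offsets (0.0617), a mean count of at least 50 (0.0731) or DESeq2's test (0.0952).

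Slamf1 peak 4 (173702829 to 173704292), the strongest of the locus, had 33.6, 28.0, 31.1 and 28.7 CPM in the old and 31.0, 37.7, 23.5 and 22.8 CPM in the young libraries. The young libraries lay on both sides of the old ones (log2 fold change 0.07 ± 0.14, edgeR adjusted p = 0.774). Each of the small peaks had fewer counts in total over the old libraries, but none of those tested passed. Slamf1 peak 2 (173697121 to 173697417) had 1.27, 1.47, 2.31 and 2.89 CPM in the old and 4.90, 2.74, 4.50 and 3.23 CPM in the young libraries. Old replicate 4 alone reached the young range, and the log2 fold change of -0.91 ± 0.34 did not pass (edgeR adjusted p = 0.0590). It passed without old replicate 4, at -1.15 (adjusted p = 0.0180), when 30.0% of all tested peaks were called. Without young replicate 2 it also passed, at -1.05 (0.0397). Slamf1 peaks 3 and 6 had log2 fold changes of -0.43 ± 0.27 and -0.16 ± 0.32, with overlapping groups, and neither passed (edgeR adjusted p = 0.291 and 0.779). The untested peak 5 had 2, 9, 5 and 6 counts in the old and 14, 17, 12 and 8 in the young libraries, which overlapped. Fitted with no count filter, it had a log2 fold change of -1.18 ± 0.41 (edgeR adjusted p = 0.0444). It held 1.76 ± 0.863% of the locus's counts in the old and 4.30 ± 1.02% in the young libraries (SD, n = 4 per group), without overlap. That share comes from the same counts and adds no support. The untested peak 7, at 1 to 5 counts per library, was lower in every old library in CPM. Fitted with no count filter, it did not pass (log2 fold change -1.29 ± 0.74, edgeR adjusted p = 0.253). The SLAM family genes Slamf7, Cd48, Cd84 and Slamf6 lie on both sides of Slamf1 on the reference order.

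At Cd48, whose protein the gate excludes, accessibility per length was the lowest of the 6 loci, and it fell in old HSCs. Cd48 peak 1 (chromosome 1, 173611816 to 173612538) dropped from 119 counts over the young libraries to 45 over the old ones. It had 1.27, 2.95, 3.69 and 2.07 CPM in the old and 6.06, 6.73, 7.25 and 6.89 CPM in the young libraries. The groups did not overlap (log2 fold change -1.41 ± 0.28, edgeR adjusted p = 0.00128), and the call held with each library left out in turn, at -1.63 to -1.20. The peak reached the filter's floor of 2.09 CPM in 4 young but only 2 old libraries, so it entered the test through its young level. That selection favoured a lower old level, and the call is no independent support for the fall. Fitted with no count filter, Cd48 peak 1 had a log2 fold change of -1.38 ± 0.28 (edgeR adjusted p = 0.0013).

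Cd48 peaks 2, 3 and 4 had log2 fold changes of -0.62 ± 0.37, -0.33 ± 0.28 and -0.18 ± 0.25, none of which passed (edgeR adjusted p = 0.263, 0.437 and 0.676). They lie 5503 to 17158 bases from peak 1. The untested peak 5, 21256 bases from peak 1, had 2, 5, 2 and 6 counts in the old and 9, 6, 5 and 3 in the young libraries, which overlapped. Fitted with no count filter, it had a log2 fold change of -0.59 ± 0.53 (edgeR adjusted p = 0.490). Without peak 1, the sum of the other 4 peaks was 9.48 ± 0.636 CPM in the old and 12.3 ± 1.68 CPM in the young libraries (SD, n = 4 per group), still without overlap. Peak 1 held 19.6 ± 7.23% of the locus's counts in the old and 34.5 ± 3.76% in the young libraries, without overlap. That share comes from the same counts as the call, so it restates the fall and adds no support. At 5 to 32 counts per library, peak 1 rests on few reads.

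At Procr, the locus for EPCR, each of the 5 tested peaks had a positive log2 fold change and 1 was called. Procr peak 4 (chromosome 2, 155581370 to 155581804) had 18.8, 20.4, 20.8 and 19.4 CPM in the old and 14.5, 12.0, 12.3 and 12.3 CPM in the young libraries. The groups were well apart, and the 1.56-fold rise (log2 fold change 0.64 ± 0.14, edgeR adjusted p = 0.00246) was called under each of the 16 alternatives. Young replicate 1 was the highest young library. This peak held 17.0 ± 0.292% of the locus's counts in the old and 13.5 ± 0.617% in the young libraries (SD, n = 4 per group) and its share was higher in every old library than in any young one. The share comes from the same counts as the call, so it restates the rise and adds no support. Per 1000 bases Procr peak 4 was at 45.8 CPM in old libraries, above the 37.7 CPM of the wide peak 2, whereas in the young libraries it was at 29.4, below the 32.7 of peak 2.

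Procr peak 2 (155567845 to 155569472), the strongest by counts, had 56.5, 65.2, 65.7 and 57.7 CPM in the old and 58.1, 49.9, 55.5 and 49.5 CPM in the young libraries. Old replicates 1 and 4 lay just below young replicate 1 (log2 fold change 0.21 ± 0.08, edgeR adjusted p = 0.0700). The peak passed without old replicate 4 (adjusted p = 0.0226), when 30.0% of all tested peaks were called, and with no count filter (0.0452). Procr peak 3 had a log2 fold change of 0.35 ± 0.17 (edgeR adjusted p = 0.157), and old replicate 4, at 12.4 CPM, lay within the young range of 10.8 to 14.5 CPM. Peaks 5 and 6 had values of 0.20 and 0.22. The untested peak 1 had 10, 6, 10 and 11 counts in the old and 4, 3, 1 and 3 in the young libraries, without overlap. Fitted with no count filter, it had a log2 fold change of 1.73 ± 0.49 (edgeR adjusted p = 0.0149). The sum outside peak 4 was 91.5 ± 4.98 CPM in the old and 77.9 ± 2.94 CPM in the young libraries, also without overlap. Edem2 and Mmp24 flank Procr on the reference order, and some of these peaks may belong to them.

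At Cd34, the 1 called peak was lower in old HSCs. Cd34 peak 6 (chromosome 1, 196769727 to 196770065) dropped from 89 counts over the young libraries to 26 over the old ones. It had 1.53, 1.89, 0.692 and 1.65 CPM in the old and 4.90, 4.21, 6.25 and 4.96 CPM in the young libraries. Every old library was below every young one (log2 fold change -1.78 ± 0.33, edgeR adjusted p = 6.48e-04). Because this peak entered the test through its young libraries alone, a difference was built into its selection, and the test is no independent support for it. Fitted with no count filter, it had a log2 fold change of -1.75 ± 0.33 (edgeR adjusted p = 6.12e-04). The peak held 4.50 ± 1.85% of the locus's counts in the old and 12.7 ± 3.04% in the young libraries (SD, n = 4 per group). That share comes from the same counts and adds no support.

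Cd34 peak 5 (196764752 to 196765855), the strongest of the locus, lies 4593 bases before peak 6 and had 15.02, 11.6, 14.1 and 16.1 CPM in the old and 17.3, 18.1, 16.8 and 15.5 CPM in the young libraries. Old replicate 4 lay within the young range (log2 fold change -0.25 ± 0.15, edgeR adjusted p = 0.243). Cd34 peaks 2 and 9 had log2 fold changes of -0.47 ± 0.28 and -0.62 ± 0.26, and peak 1 had 0.64 ± 0.39, none of which passed (edgeR adjusted p = 0.256, 0.104 and 0.261). The 4 untested peaks did not point one way. Cd34 peak 4 had 6, 8, 1 and 5 counts in the old and 9, 13, 9 and 11 in the young libraries. Cd34 peak 8, by contrast, had 11, 10, 12 and 11 counts in the old and 5, 9, 6 and 5 in the young libraries. Its share of the locus, from the same counts, was 7.71 ± 1.20% in the old and 3.47 ± 0.778% in the young libraries. Neither peak overlapped between the groups in CPM, but neither passed when fitted with no count filter. The log2 fold change was then -1.03 ± 0.44 at peak 4 (edgeR adjusted p = 0.109) and 0.83 ± 0.38 at peak 8 (0.14). Outside peak 6 the Cd34 sum was 29.3 ± 3.72 CPM in the old and 33.7 ± 3.62 CPM in the young libraries, and the groups overlapped.

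**Figure D4:**
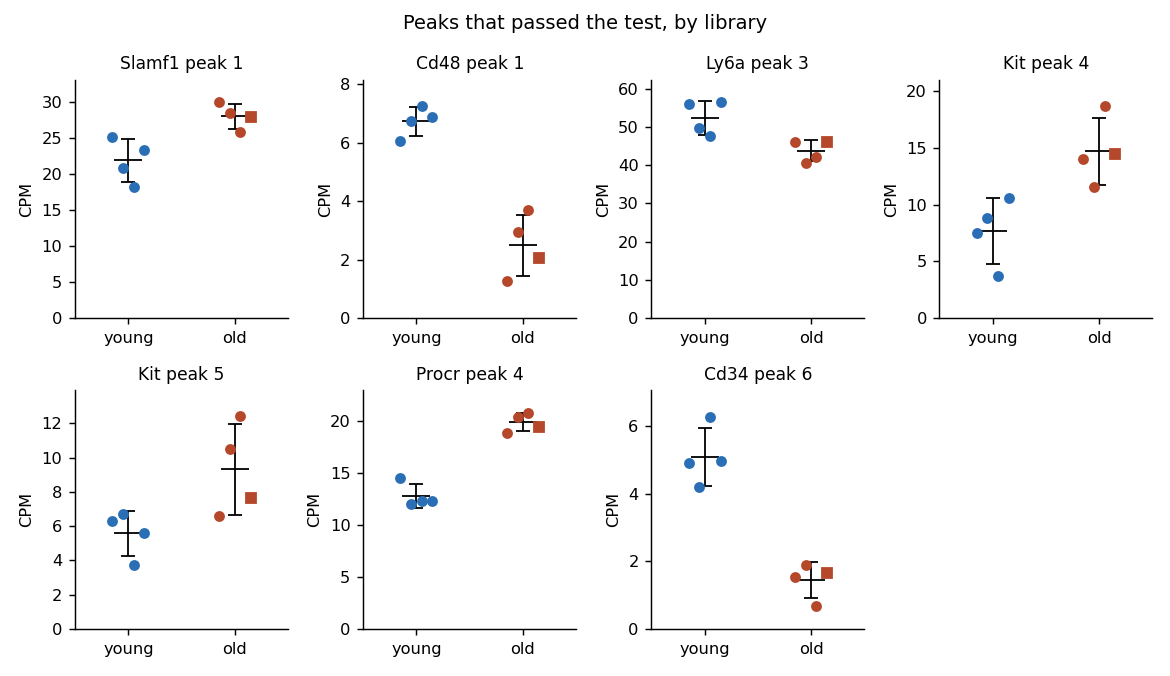
CPM (vertical axis, from 0) in the 4 young (blue) and 4 old (red) libraries at the 7 called peaks, with the mean and SD in black and old replicate 4 as a square. The groups do not overlap at any of them except Kit peak 5, where old replicate 1 lies within the young range.

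Across the 8 libraries, the sums of Kit and Procr were alike (Pearson r = 0.846 of log2 CPM), as were those of Ly6a and Cd34 (r = 0.851), and Cd48 was closest to Ly6a (r = 0.767). Kit and Cd48 were the most opposed (r = -0.903). The 8 points of each pair share the libraries and their 2 groups, so r includes the difference between the groups. Slamf1 was closest to Kit (r = 0.496). Among windows of 50000 bases elsewhere, the one most like Cd48 lay on chromosome 6 from 136650001 to 136700000 (r = 0.994), the one most like Kit on chromosome 13 from 83000001 to 83050000 (r = 0.993), and the one most like Cd34 on chromosome 7 from 87800001 to 87850000 (r = 0.992). For Ly6a it lay on chromosome 2 from 18850001 to 18900000 (r = 0.990), for Procr on chromosome 9 from 20600001 to 20650000 (r = 0.988) and for Slamf1 on chromosome 11 from 88650001 to 88700000 (r = 0.973). Each of these windows was chosen as the highest of all, which by itself makes r high.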

How the data were processed

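The submitters' processing notes name MACS2, Bowtie2, Trim Galore, FastQC, Picard, SAMtools and the build mm9, without versions. The making of the shared peak set, the counting program and any shift of read ends are not given in the sources used. The authors deposited raw counts per peak for 8 libraries, each column matched to a sample by title. Here, peaks were filtered with filterByExpr (minimum count 10, minimum total 15), which kept 94.2% of the counts, scaled by TMM and fitted over the whole table with edgeR 4.0.16 under R 4.3.3 by its quasi-likelihood test (glmQLFit with robust dispersion, then glmQLFTest), on group alone, with Benjamini-Hochberg adjustment. SE is the log2 fold change divided by the root of F. Locus sums take all deposited peaks of the interval, and CPM of sums and of peaks use the effective library sizes of their own fits. Named peaks were those called and, in each locus, those with the highest mean CPM, the largest absolute log2 fold change or the smallest p; other peaks were chosen after their values were seen. The members and lists were chosen with earlier results of these data known. The fit was tested on simulated data. Alternatives were DESeq2 1.42.0 size factors and test, total count scaling, loess offsets, other filters and thresholds, other windows, a replicate block and each library left out. Genes of other cell types could not be placed, because no mm9 annotation was used. RefSeq tables of GRCm38.p6 gave promoter sequences and gene order only.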

Additional observations from a re-analysis of the deposited data

Results flagged for a closer look

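At Procr peak 4, young replicate 1 lay above the other young libraries, at 14.5 CPM against 12.0 to 12.3 CPM, but well below the lowest old library at 18.8 CPM. Of 38 groups of 4 values screened (the 6 locus sums and the named peaks), this was the 1 in which a library stood out. That is no more than the rate of about 1 in 20 that chance gives.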

How the results depend on the processing

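Of the 6 locus sums, Cd48, Kit and Procr kept direction and call under each of the 15 alternatives run for sums. Loess offsets, the other count filters and the stricter threshold were run for peaks only. The Cd34 sum lost its call with DESeq2's test (-0.34, adjusted p = 0.0528). With each library left out in turn it ranged from -0.42 to -0.27, and the Ly6a sum from -0.32 to -0.22. The Slamf1 sum, never called, ranged from -0.038 to 0.078 and turned below 0 without young replicate 3 or 4 (-0.019). Slamf1 peak 4, ranging from -0.031 to 0.23, turned below 0 without the same libraries, at -0.012 without young replicate 3. Member peaks called were 4 higher and 3 lower of 29, against 20.5% of all tested peaks. They were 7 and 4 of 51 with no count filter (16.1% of all peaks called) and 1 and 1 of 9 with a mean count of at least 50 (21.7%). With DESeq2's test they were 2 and 2 of 51 (10.5%), and at an adjusted p below 0.01 they were 2 and 2 of 29 (10.1%). DESeq2's test of peaks took in all 51 members, so a call lost there cannot be put down to the test alone. Leaving out libraries gave 2 to 7 higher and 2 to 5 lower, while the share of all peaks called ran from 13.8% without old replicate 2 to 30.0% without old replicate 4. Procr peak 4 was called in 16 of 16 alternatives, and Cd48 peak 1 and Kit peak 4 in 15 of the 15 that tested them. Cd48 peak 1 entered the main test through its young level, so its tally is no independent support for a fall. Ly6a peak 3 was called in 8 of 16, Kit peak 5 in 8 of 15 and Slamf1 peak 1 in 6 of 16. With a replicate block 5 member peaks were higher and 3 lower, against 22.9% of all peaks called, and Kit peak 3 was then called (adjusted p = 0.0414). Deviations of same-numbered libraries correlated at -0.0140 to 0.179. Libraries with different numbers were not compared in this way, so these values cannot tell whether the replicate numbers pair the libraries. A mean of at least 50 counts per library was reached by 9 of the 29 tested peaks, and whether depth limits the calls of the others was not tested.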
